A study of Marchantia polymorpha and Klebsormidium nitens with 125 samples.

Results

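MpERF18 (Mp5g12480) and MpERF21 (Mp5g22160) are transcription factor genes of the liverwort Marchantia polymorpha, chosen by their identifiers from the 19355 genes of the deposited count tables because earlier results had shown them raised in nutrient-starved wild-type plants. They are 2 of the 21 genes that carry an MpERF symbol in the RefSeq gene table. Both lie on chromosome 5, and neither overlaps another gene in that table. The starvation contrasts of the wild-type time course therefore chose the genes. Those values are given as a description without a test, and so are the resupply values set against the same starved libraries. Tests were made on libraries and contrasts that did not enter the choice.

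ERF (ethylene response factor) proteins bind DNA through an AP2 domain and either activate or repress the genes they bind. In flowering plants such as Arabidopsis the family acts downstream of ethylene and also in responses to drought, cold, wounding and low oxygen. Ethylene itself is perceived by membrane receptors (ETR) that keep the kinase CTR1 active, and its signal passes through EIN2 to EIN3-like (EIL) transcription factors, which in Arabidopsis switch on ERF genes.

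Poly(A)-enriched, strand-specific RNA-seq was made from whole gemmalings, the young plants that grow from asexual buds. Gemmae of Tak-1, a male laboratory accession, grew for 7 days in full liquid Yamagami medium. They then spent 5 days in a medium that held nitrate at 1%, phosphate at 1% or sucrose at 0% of its usual amount. Starved plants were then returned to full medium for 6, 24 or 72 h, and control plants had full medium only. These 13 groups of 3 libraries form the time course. A starvation set held the knock-out lines Mpcsd-2, Mperf20-21 and Mphd9-14, each starved of nitrate, phosphate or sucrose in the same way or kept in full medium (12 groups of 3, except sucrose-starved Mperf20-21 with 2). A control-condition set held the same 3 lines and Tak-1 in full medium only (4 groups of 3). Each gene was represented by 1 line, so an effect of the gene and of the line cannot be told apart. The labels do not state that replicates are separate cultures. The p-values therefore weigh differences against the spread between these libraries, and that spread may be technical.

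The 86 M. polymorpha libraries held 16878159 to 38992957 counts. The transcripts of the 3 mutated genes did not mark their lines. MpCSD averaged 683 ± 13.1 CPM (counts scaled to library size; mean ± SD, n = 3 throughout unless stated) in Mpcsd-2 and 814 ± 36.7 in Tak-1 of the control-condition set, MpERF20 averaged 6.59 ± 0.48 CPM in Mperf20-21 and 11.8 ± 1.29 in Tak-1, and MpHD9 averaged 34.3 ± 1.22 CPM in Mphd9-14 and 46.6 ± 2.43 in Tak-1. The small subunit of Rubisco, MpRBCS, had 166 to 889 CPM and the rhizoid gene MpBHLH14 (MpRSL1) 8.08 to 29.8 CPM in every library, while the sperm gene MpPRM stayed at or below 0.242 CPM. The other male gametangium gene, MpDUO1, had 0.192 to 1.27 CPM, and the egg gene MpBELL4, the highest of the egg genes listed, reached 2.48 CPM. In the correlation of 3000 variable genes, 1 library of nitrate-starved Mpcsd-2 (replicate 3) lay closer to the Mpcsd-2 controls (r = 0.615) than to its own group (r = 0.457), and 7 of the 39 time-course libraries, all from resupplied plants, lay closer to another resupply group. Phosphate-starved Tak-1 replicate 2 had the lowest correlation with its own group among the 9 starved Tak-1 libraries (r = 0.540). Values that rest on the named starved libraries are given with and without them. Leaving out each library in turn kept MpERF18 below starvation, with differences of -1.43 to -1.21 on the log2 scale at 72 h of nitrate, -1.48 to -1.11 and -1.90 to -1.43 at 24 and 72 h of phosphate, and -1.53 to -1.40 at 72 h of sucrose.

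In Tak-1 the MpERF18 transcript was 2.78 to 3.73 times as abundant in starved as in control gemmalings under the 3 starvations. The nitrate-starved libraries had 52.0, 46.0 and 54.4 CPM, the phosphate-starved libraries 58.0, 90.1 and 56.5 CPM, and the sucrose-starved libraries 54.7, 54.2 and 61.4 CPM, against 17.1, 17.8 and 19.9 CPM in the controls. All 9 starved libraries were above all 3 controls, and the 3 starvation groups overlapped each other. The differences on the log2 scale were 1.47 ± 0.16 (SE) for nitrate, 1.90 ± 0.16 for phosphate and 1.63 ± 0.16 for sucrose; without phosphate-starved replicate 2 the phosphate difference was 1.65. Over all 13504 genes of the time course, 31.6% were called (adjusted p under 0.05) under nitrate starvation, 24.6% under phosphate starvation and 35.3% under sucrose starvation, and no result is read from the members' place among them. In these bulk samples, more cells that express a gene and more RNA per cell cannot be told apart.

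MpERF18 was lower after resupply than in starved plants in all 9 resupply groups, and no resupplied library reached the lowest starved one. Nitrate-starved plants had 50.8 ± 4.33 CPM. After 6 h of nitrate the level was 17.3 ± 2.41 CPM, the lowest of the 13 group means, and overlapped the controls (18.3 ± 1.46 CPM). At 24 h of nitrate it was 31.2 ± 3.09 CPM and at 72 h 20.6 ± 3.20 CPM. The phosphate series had 28.2 ± 4.12, 26.6 ± 2.18 and 21.3 ± 5.71 CPM at 6, 24 and 72 h, against 68.2 ± 19.0 CPM in phosphate-starved plants. The sucrose series had 23.9 ± 2.96, 29.7 ± 2.72 and 20.7 ± 1.90 CPM, against 56.8 ± 4.04 CPM in sucrose-starved plants. In the order of the 13 group means the 3 starvation groups stood first, the gap to the next group was the only one between neighbours without overlap, and the remaining 10 groups overlapped from neighbour to neighbour. Set against starvation, 42.3%, 29.9% and 32.5% of all genes were called after 6, 24 and 72 h of nitrate, 46.0%, 33.9% and 33.8% after phosphate, and 61.5%, 54.4% and 39.6% after sucrose.

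The nitrate series was not a steady return. MpERF18 rose between the first and the second resupply time: the 24 h libraries had 28.1, 31.3 and 34.2 CPM, against 16.8, 19.9 and 15.2 CPM at 6 h, with no overlap. The difference was 0.85 ± 0.16 on the log2 scale (edgeR quasi-likelihood test, Benjamini-Hochberg adjusted p = 0.000276), where 26.1% of all genes were called and 13.1% were called higher. Leaving out any of the 6 libraries kept the call (adjusted p 0.000402 to 0.00530). The difference between 72 h and 6 h of nitrate was 0.26 ± 0.16 and was not called (adjusted p = 0.239, edgeR), where 33.7% of genes were called. Of the 4 contrasts between times of phosphate or sucrose resupply none was called by edgeR for MpERF18, beside 18.5% and 24.5% of genes at 24 and 72 h of phosphate and 48.9% and 55.1% at 24 and 72 h of sucrose. The 72 h minus 6 h difference for phosphate came nearest, at -0.41 ± 0.16 (adjusted p = 0.0663); it passed with DESeq2 (adjusted p = 0.0489) and without 72 h replicate 2 (adjusted p = 0.00846), which had 27.7 CPM beside 16.7 and 19.6 CPM.

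**Figure D1:**
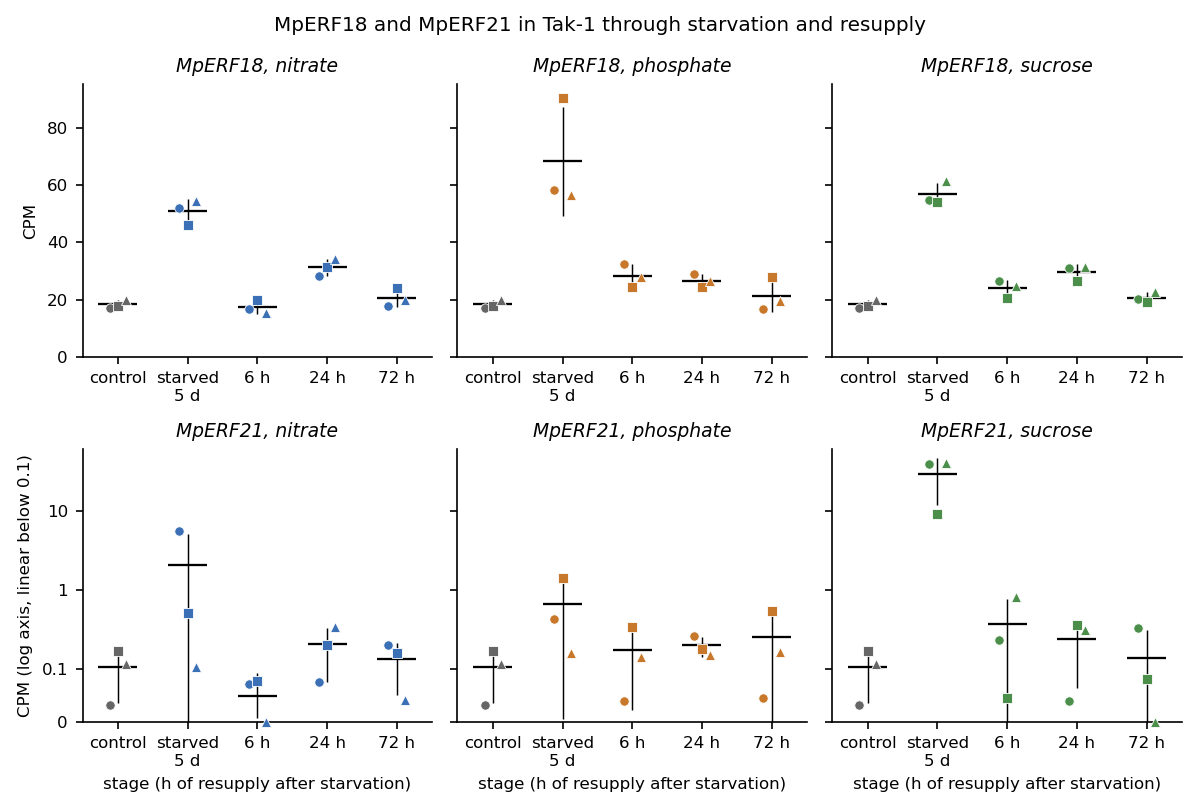
CPM of MpERF18 (upper panels, linear axis) and MpERF21 (lower panels, log axis that is linear below 0.1) in Tak-1 by stage for nitrate, phosphate and sucrose; points are libraries (circle, square and triangle for replicates 1 to 3), horizontal lines are means and vertical lines span 1 SD, cut at 0. MpERF18 had 46.0 to 90.1 CPM in the starved libraries, above all others, and MpERF21 exceeded 6 CPM only under sucrose starvation.

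In the Tak-1 time course MpERF21 was highest under sucrose starvation. The sucrose-starved libraries had 39, 9.0 and 40.2 CPM (813, 226 and 788 counts), against 0.0318, 0.167 and 0.114 CPM (1, 4 and 3 counts) in the controls. Every sucrose-starved library was above every other library of the time course. The fitted difference was 8.15 ± 1.07 on the log2 scale with a 95% interval of 5.96 to 10.3 that rests on 8 counts in the controls. Full-medium Tak-1 had 23.6 times as much MpERF21 in the control-condition set (2.46 ± 2.59 CPM) as in the time course (0.105 ± 0.0684 CPM), in tables normalized separately, so the size of this difference depends on which controls it is set against. Under nitrate starvation 1 library decided the value: replicate 1 had 5.63 CPM (215 counts), while replicates 2 and 3 had 0.513 and 0.105 CPM (16 and 3 counts), the last of them within the range of the controls. The nitrate difference was 4.38 ± 1.13 with all libraries and 1.63 without replicate 1. Under phosphate starvation the libraries had 0.428, 1.42 and 0.159 CPM (13, 32 and 5 counts), which overlapped the controls. The phosphate difference was 2.61 ± 1.31 (95% interval -0.06 to 5.28), and 1.52 without replicate 2. Apart from sucrose starvation, each of the 12 remaining group means overlapped its neighbours in the order of levels.

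After sucrose resupply MpERF21 was again near the floor. It had 0.234, 0.0446 and 0.818 CPM at 6 h (25 counts in all), 0.0384, 0.357 and 0.315 CPM at 24 h (20 counts) and 0.333, 0.0818 and 0 CPM at 72 h (11 counts). All 9 libraries were below the lowest sucrose-starved library, and the fitted differences from starvation were -6.33 ± 0.93, -6.90 ± 0.96 and -7.61 ± 1.03. Nitrate and phosphate resupply left 4 to 17 counts per group of 3 libraries. No contrast between resupply times was called for MpERF21 (0 of 6 by edgeR, 0 at an unadjusted p under 0.05, and 0 by DESeq2). At 4 to 25 counts per group differences between these times were not detectable at this depth: the 95% interval of 24 h minus 6 h of nitrate ran from -1.66 to 5.66.

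The choice of both genes as raised in starved Tak-1 fixes in part how they relate in the time course. Across the 13 group means their log2(CPM + 1) values correlated with r = 0.62, and across the 39 libraries with r = 0.58; the points share libraries and medium series, and no test is given. Across the 12 group means of the starvation set the same correlation was -0.59, and across its 35 libraries -0.57. Within Mpcsd-2 the control library lowest in MpERF18 (15.7 CPM) was the one highest in MpERF21 (25.1 CPM), and the same held for nitrate-starved replicate 3 (15.1 and 35.7 CPM). The other Mpcsd-2 groups had no single order. Phosphate-starved replicate 2 was highest in both genes (90.0 and 1.64 CPM). Phosphate-starved replicate 3 was lowest in MpERF18 (48.7 CPM) but not in MpERF21 (1.32 CPM). Sucrose-starved replicate 1 was lowest in both (33.7 and 8.98 CPM). Sucrose-starved replicate 3 was close to it in MpERF18 (34.0 CPM) but highest in MpERF21 (43.7 CPM).

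**Figure D2:**
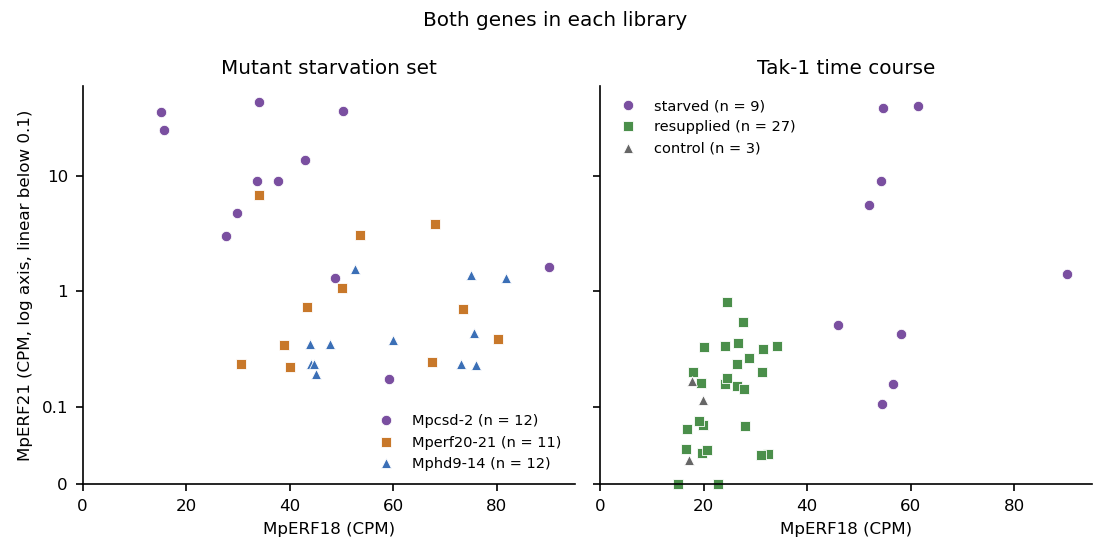
MpERF18 (x axis, CPM) against MpERF21 (y axis, CPM, log axis that is linear below 0.1) in each library of the starvation set (left, by mutant) and of the Tak-1 time course (right, by stage). The highest MpERF21 values of the left panel, up to 43.7 CPM, belong to Mpcsd-2 libraries, and in the right panel only starved libraries pass 40 CPM of MpERF18.

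In full medium of the control-condition set MpERF18 was higher in all 3 knock-out lines than in Tak-1. The control-condition set asked how each line differs from the wild type without starvation, and its libraries did not choose the genes. Mpcsd-2 had 115, 116 and 122 CPM, Mperf20-21 had 62.7, 53.2 and 57.1 CPM and Mphd9-14 had 60.8, 68.5 and 66.1 CPM, against 21.9, 16.7 and 20.7 CPM in Tak-1. Every mutant library was above every Tak-1 library, and the Mpcsd-2 libraries were also above those of the other lines. MpERF18 rose by 2.58 ± 0.09 in Mpcsd-2 (adjusted p = 6.48e-14), 1.55 ± 0.09 in Mperf20-21 (adjusted p = 1.61e-10) and 1.72 ± 0.09 in Mphd9-14 (adjusted p = 3.24e-11) on the log2 scale (edgeR). Of the 12565 genes tested, 56.8% were called in Mpcsd-2, 41.3% in Mperf20-21 and 43.7% in Mphd9-14, and 28.3%, 21.0% and 21.7% were called higher. The 3 comparisons share the Tak-1 libraries, so they are not independent of each other. The calls held in every alternative run, with all 3 differences between 1.44 and 2.65. They cover this set only. In the starvation set, normalized separately and without Tak-1, full-medium Mpcsd-2 averaged 24.4 ± 7.64 CPM of MpERF18, so its high level here was not repeated there.

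MpERF21 was high in Mpcsd-2 and variable in Tak-1. Mpcsd-2 had 6.21, 5.59 and 5.67 CPM, Mperf20-21 had 2.40, 0.928 and 1.03 CPM and Mphd9-14 had 0.886, 1.42 and 0.807 CPM, against 5.39, 1.51 and 0.490 CPM in Tak-1. The Mpcsd-2 libraries were above all others, whereas Tak-1 overlapped both other mutants. MpERF21 rose in Mpcsd-2 by 1.26 ± 0.51 (adjusted p = 0.0422, edgeR), but the call was lost with DESeq2 (adjusted p = 0.130) and without any of 5 of the 6 libraries (adjusted p up to 0.152). The exception was Tak-1 replicate 1, the library with 5.39 CPM: without it the difference was 2.56 (adjusted p = 0.000204). The differences were -0.74 ± 0.55 in Mperf20-21 (adjusted p = 0.301) and -1.21 ± 0.57 in Mphd9-14 (adjusted p = 0.0980), neither of them called by edgeR. Without Tak-1 replicate 1 they turned to 0.55 and 0.08, so the direction in these lines rests on that library. Without Tak-1 replicate 3 both passed, at -1.25 (adjusted p = 0.0381) and -1.71 (adjusted p = 0.00736).

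**Figure D3:**
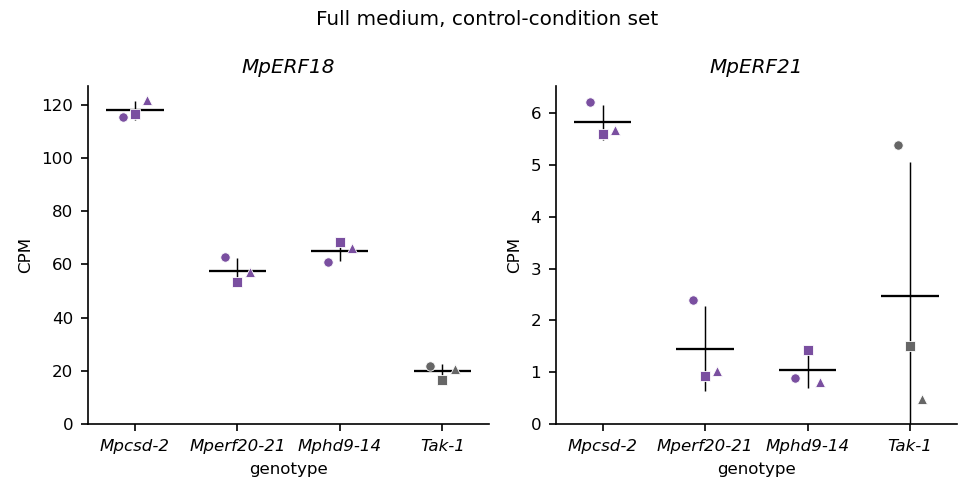
CPM (linear axes) of MpERF18 (left) and MpERF21 (right) in full medium in the control-condition set; points are libraries (circle, square and triangle for replicates 1 to 3), horizontal lines means and vertical lines 1 SD, cut at 0. MpERF18 had 53.2 to 122 CPM in the mutants and 16.7 to 21.9 CPM in Tak-1; Tak-1 replicate 1 stands apart for MpERF21 at 5.39 CPM.

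In the starved knock-out lines MpERF18 rose with a call in 1 of 9 contrasts. Phosphate-starved Mpcsd-2 had 59.1, 90.0 and 48.7 CPM, against 27.7, 15.7 and 29.9 CPM in its controls, with no overlap. The difference was 1.43 ± 0.27 (adjusted p = 0.000405, edgeR), where 7.80% of 13162 genes were called and 6.40% called higher; it held without each library in turn (1.14 to 1.61). Phosphate-starved Mperf20-21 had 73.4, 67.5 and 80.3 CPM, against 34.1, 50.1 and 43.3 CPM in its controls. Phosphate-starved Mphd9-14 had 75.6, 73.1 and 75.9 CPM, against 44.6, 43.8 and 47.7 CPM in its controls. Neither pair overlapped, but the differences of 0.79 ± 0.26 (adjusted p = 0.0823) and 0.72 ± 0.26 (adjusted p = 0.198) were not called by edgeR, with 4.57% and 2.30% of genes called in these contrasts. Fitted on the compared groups alone, they passed (adjusted p = 0.00172 and 9.54e-07).

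Under sucrose starvation the MpERF18 libraries again lay above their own controls in all 3 lines. The share of all genes that lay apart in this way was not counted. Mpcsd-2 had 33.7, 50.4 and 34.0 CPM, a difference of 0.69 ± 0.27 (adjusted p = 0.0596). Mperf20-21 had 68.0 and 53.5 CPM, a difference of 0.52 ± 0.29 (adjusted p = 0.247). Mphd9-14 had 52.6, 81.8 and 75.1 CPM, a difference of 0.62 ± 0.26 (adjusted p = 0.0886). None was called by edgeR, with 26.2%, 15.3% and 22.4% of genes called in Mpcsd-2, Mperf20-21 and Mphd9-14. The Mpcsd-2 value passed without control replicate 3 or sucrose-starved replicate 1 or 3 (adjusted p 0.0440 to 0.0476). It did not pass without control replicate 2 (adjusted p = 0.278) or sucrose-starved replicate 2 (adjusted p = 0.313). The other lines passed when fitted on the compared groups alone (adjusted p = 0.0293 and 0.00410).

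Under nitrate starvation MpERF18 was called by edgeR in no line. Whether its response differed between nutrients was not tested. Nitrate-starved Mpcsd-2 had 42.9, 37.6 and 15.1 CPM, Mperf20-21 had 30.6, 40.1 and 38.8 CPM and Mphd9-14 had 45.1, 60.0 and 44.1 CPM, each overlapping its controls. The differences were 0.39 ± 0.27 (adjusted p = 0.732), -0.22 ± 0.26 (adjusted p = 0.819) and 0.13 ± 0.26 (adjusted p = 0.998, edgeR), with 1.85%, 3.25% and 1.22% of genes called. Their 95% intervals reached 0.94, 0.32 and 0.66 at the upper end. The 1.47 of nitrate-starved Tak-1 helped choose the gene and was measured in another table. It is therefore no fair measure for these intervals, and no test compared them. Without Mpcsd-2 replicate 3, the library closer to the controls, the Mpcsd-2 difference was 0.72 (adjusted p = 0.0956), and without control replicate 2 it was 0.15 (adjusted p = 0.955).

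MpERF21 was called in 1 of the 9 contrasts: it fell in phosphate-starved Mpcsd-2. It had 0.174, 1.64 and 1.32 CPM in phosphate-starved Mpcsd-2, against 3.05, 25.1 and 4.75 CPM in the Mpcsd-2 controls, with no overlap. The difference was -3.36 ± 0.77 (adjusted p = 0.00376, edgeR), where 1.40% of genes were called lower. Without control replicate 2, the library with 25.1 CPM, it was -1.88 and not called (adjusted p = 0.174), and in a fit of the compared groups alone it was not called either (adjusted p = 0.0868). In Mperf20-21 MpERF21 had 0.704, 0.248 and 0.384 CPM after phosphate starvation and 0.237, 0.222 and 0.348 CPM after nitrate starvation, against 6.84, 1.08 and 0.740 CPM in its controls. These groups lay below the controls without overlap, and the differences of -2.68 ± 0.97 (adjusted p = 0.134) and -3.44 ± 1.04 (adjusted p = 0.0656) were not called by edgeR but were by DESeq2 (adjusted p = 0.0285 and 0.00358). Without control replicate 1 they were -0.997 and -1.76, neither called. Nitrate-starved Mpcsd-2 had 13.8, 8.97 and 35.7 CPM, a difference of 0.83 ± 0.61 (adjusted p = 0.751). It was 0.05 without replicate 3 (adjusted p = 0.983) and 2.31 without control replicate 2 (adjusted p = 0.0725).

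Sucrose starvation, under which MpERF21 was highest in Tak-1, gave no call for it by edgeR in the mutants. Sucrose-starved Mpcsd-2 had 8.98, 36.5 and 43.7 CPM and overlapped its controls, with a difference of 1.44 ± 0.61 (adjusted p = 0.0820); without control replicate 2 it was 2.92 and called (adjusted p = 0.00264). Sucrose-starved Mperf20-21 had 3.86 and 3.09 CPM, within the range of its controls (0.26 ± 0.80, adjusted p = 0.870). Sucrose-starved Mphd9-14 had 1.58, 1.30 and 1.40 CPM, against 0.237, 0.349 and 0.349 CPM in its controls, without overlap. Its difference was 2.17 ± 1.15 (adjusted p = 0.188) and passed with DESeq2 (adjusted p = 0.0468) and in a fit of the compared groups alone (adjusted p = 0.000971). In Mphd9-14 under nitrate and phosphate starvation MpERF21 stayed between 0.194 and 0.433 CPM, with 17 and 18 counts per group, and overlapped the controls.

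**Figure D4:**
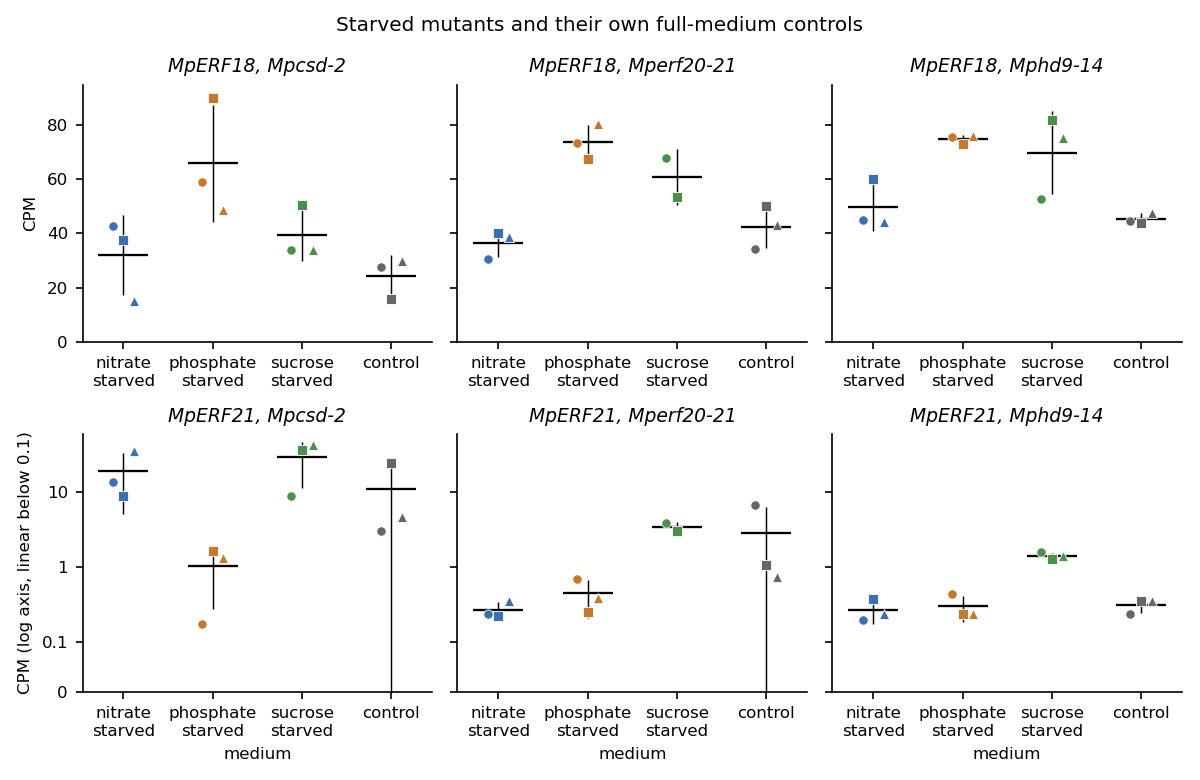
CPM of MpERF18 (upper panels, linear axis) and MpERF21 (lower panels, log axis that is linear below 0.1) in each knock-out line starved of nitrate, phosphate or sucrose and in its full-medium control; points are libraries (circle, square and triangle for replicates 1 to 3), horizontal lines means and vertical lines 1 SD, cut at 0. The phosphate-starved libraries had 48.7 to 90.0 CPM of MpERF18, above the controls of their own line, and MpERF21 in the Mpcsd-2 controls ranged from 3.05 to 25.1 CPM.

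Whether the starvation responses differed between the lines was tested directly. None of the 18 differences of response was called (9 per gene; 0 by edgeR and 0 by DESeq2, with 0 for MpERF18 and 1 for MpERF21 at an unadjusted p under 0.05). The percentage of all genes called in these 9 contrasts was 0%, 0.0228% and 0% for nitrate, 0.0912%, 0.319% and 0.00760% for phosphate, and 0.0304%, 0.152% and 0.0228% for sucrose (Mpcsd-2 minus Mperf20-21, Mpcsd-2 minus Mphd9-14 and Mperf20-21 minus Mphd9-14). The MpERF21 response to nitrate starvation, Mpcsd-2 minus Mperf20-21, was the one with the low unadjusted p: 4.27 ± 1.22 (95% interval 1.78 to 6.75, adjusted p = 0.357). It was 2.58 without Mperf20-21 control replicate 1, 3.49 without nitrate-starved Mpcsd-2 replicate 3 and 5.75 without Mpcsd-2 control replicate 2, and was called in none of these. For MpERF18 the responses to phosphate starvation differed by 0.64 ± 0.37 between Mpcsd-2 and Mperf20-21 (95% interval -0.12 to 1.40) and by 0.71 ± 0.37 between Mpcsd-2 and Mphd9-14 (95% interval -0.05 to 1.47). Leaving out 1 library took them to between 0.35 and 0.82 and between 0.42 and 0.89. The upper ends of these intervals are close to the whole response of Mpcsd-2, so the lines are not shown to respond alike.

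**Figure D5:**
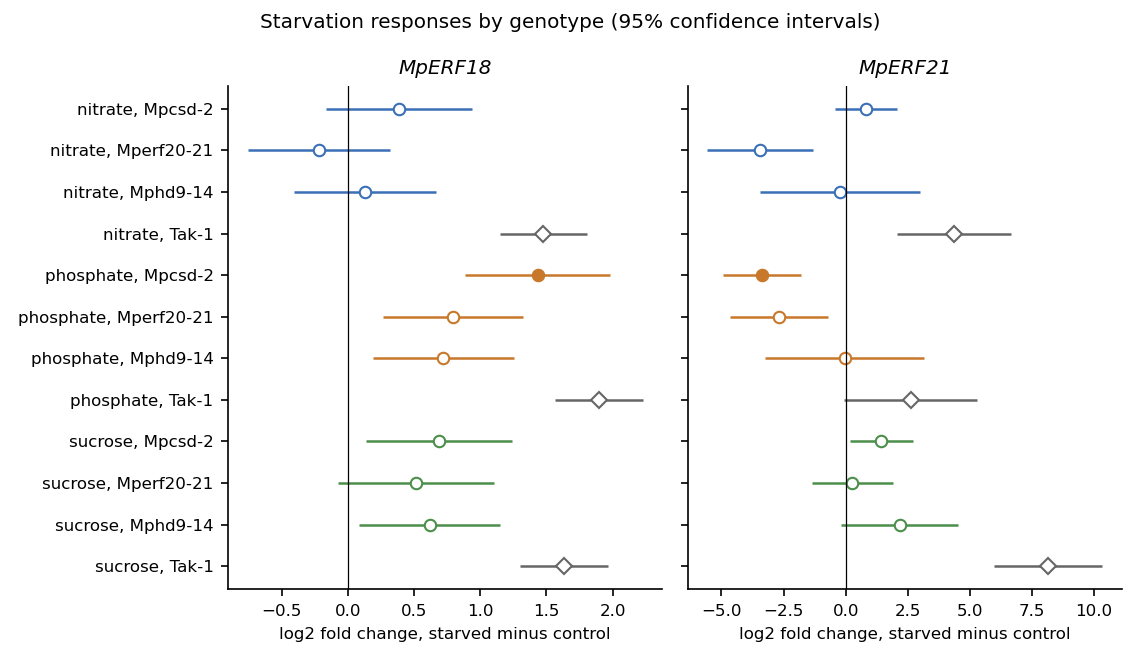
Log2 fold change, starved minus control (x axis), of MpERF18 (left) and MpERF21 (right) for each nutrient and genotype, with 95% confidence intervals; filled points passed an adjusted p of 0.05, open circles did not, and open grey diamonds are the untested Tak-1 values. MpERF18 in Tak-1 lies at 1.47 to 1.90 and in the mutants at -0.22 to 1.43, and MpERF21 lies at 8.15 in sucrose-starved Tak-1 and at 0.26 to 2.17 in the sucrose-starved mutants. The Tak-1 values helped choose the genes, were normalized separately and for MpERF21 rest on 8 counts in the controls. Sucrose-starved Tak-1 and Mpcsd-2 averaged 29.4 and 29.7 CPM of MpERF21.

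The full-medium libraries of the knock-out lines were also compared with each other in both sets, a comparison added after the values were seen. MpERF18 in Mpcsd-2 was the exception. It averaged 24.4 ± 7.64 CPM in the starvation set and 118 ± 3.47 CPM in the control-condition set. Mperf20-21 averaged 42.5 ± 8.02 CPM in the starvation set and 57.7 ± 4.77 CPM in the control-condition set, and Mphd9-14 averaged 45.4 ± 2.06 CPM in the starvation set and 65.1 ± 3.89 CPM in the control-condition set. The sets were normalized separately, so levels are set side by side and the tests stay within a set. In the control-condition set MpERF18 was higher in Mpcsd-2 than in Mperf20-21 by 1.03 ± 0.08 (adjusted p = 6.07e-09) and than in Mphd9-14 by 0.85 ± 0.08 (adjusted p = 9.18e-08), where 51.7% and 45.9% of genes were called and 25.6% and 23.3% were called higher. In the starvation set it was lower in Mpcsd-2, with differences of -0.80 ± 0.27 from Mperf20-21 (adjusted p = 0.0269) and -0.89 ± 0.27 from Mphd9-14 (adjusted p = 0.0140, edgeR), where 26.0% and 25.2% of genes were called and 13.3% and 12.9% were called lower. Without Mpcsd-2 control replicate 2, the library with 15.7 CPM, these were -0.56 (adjusted p = 0.168) and -0.66 (adjusted p = 0.106), and neither was called. The call against Mperf20-21 was also lost without Mperf20-21 control replicate 2 (adjusted p = 0.117) or 3 (adjusted p = 0.0636).

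MpERF21 was higher in Mpcsd-2 in both sets. Against Mphd9-14 the difference was 2.47 ± 0.55 in the control-condition set (adjusted p = 0.00129) and 5.11 ± 0.94 in the starvation set (adjusted p = 0.000150). In the starvation set it ranked 5 of 13162 genes by log2 difference, with 12.2% of them called higher. The Mphd9-14 controls held 21 counts of MpERF21 there, so this size and rank rest on values near the floor. The starvation-set call held without control replicate 2 (3.62, adjusted p = 0.00468). Against Mperf20-21 the differences were 2.00 ± 0.53 (adjusted p = 0.00395) and 1.91 ± 0.67 (adjusted p = 0.0339, edgeR), the second with 12.7% of genes called higher. That second call was lost with DESeq2 (adjusted p = 0.0555), in a fit of the compared groups alone (adjusted p = 0.158), and without control replicate 2 of Mpcsd-2, where the difference was 0.43 (adjusted p = 0.698), or replicates 2 or 3 of Mperf20-21 (adjusted p = 0.151 and 0.154). Mperf20-21 and Mphd9-14 did not differ with a call in either gene or set by edgeR, where 8.46% and 0.638% of genes were called; DESeq2 called MpERF21 higher in Mperf20-21 in the starvation set (3.21, adjusted p = 0.0208). Without Mperf20-21 control replicate 1, the library with 6.84 CPM, the edgeR difference was 1.5 (adjusted p = 0.826), against 3.19 with it.

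Other ERF genes moved in both directions in the knock-out lines. Of the 14 other ERF genes with enough counts in the control-condition set, 5 rose and 5 fell in Mpcsd-2, 7 rose and 2 fell in Mperf20-21, and 4 rose and 4 fell in Mphd9-14, beside the 56.8%, 41.3% and 43.7% of all genes called. The median over the tested ERF genes, members included, was -0.10, 0.35 and -0.23, beside medians of -0.02, -0.01 and -0.02 over all genes. MpERF10 rose in all 3 lines, by 2.18 ± 0.12, 1.45 ± 0.13 and 1.91 ± 0.12, and so did MpERF8, MpERF11 and MpERF15 (0.56 to 1.67). MpERF2 fell in all 3 lines (-0.50 ± 0.10, -1.25 ± 0.11 and -1.61 ± 0.11). In the starvation set MpERF8, the ERF gene called most often, rose under sucrose starvation in all 3 lines, by 1.01 ± 0.13 in Mpcsd-2 (adjusted p = 1.73e-06), 0.79 ± 0.13 in Mperf20-21 (adjusted p = 0.000169) and 0.60 ± 0.12 in Mphd9-14 (adjusted p = 0.000686, edgeR). MpERF7 fell in phosphate-starved Mpcsd-2 (-1.80 ± 0.40), and MpERF4 and MpERF10 fell in sucrose-starved Mpcsd-2 (-0.44 ± 0.11 and -0.47 ± 0.16). No other call was made among the 13 other ERF genes tested there. Of all genes, 26.2%, 15.3% and 22.4% were called under sucrose starvation in Mpcsd-2, Mperf20-21 and Mphd9-14, and 7.80% in phosphate-starved Mpcsd-2. The lowest share was 1.22%, in nitrate-starved Mphd9-14.

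Genes of the ethylene pathway were called in both directions between genotypes. Of the 8 listed genes, all tested, 3 rose and 2 fell in Mpcsd-2, 2 rose and 1 fell in Mperf20-21, and 4 rose and 1 fell in Mphd9-14 in the control-condition set, beside 56.8%, 41.3% and 43.7% of all genes called. MpCTR1 rose by 1.53 ± 0.05, 1.28 ± 0.05 and 1.48 ± 0.05, and the receptor gene MpETR1 rose by 0.83 ± 0.07, 0.90 ± 0.07 and 1.02 ± 0.07. MpEIL, the EIN3-like transcription factor gene, fell (-0.90 ± 0.05, -0.63 ± 0.05 and -0.61 ± 0.05). Among the starved mutants 1 of the 72 tests of these genes was called, MpCTR1 in sucrose-starved Mperf20-21 (0.30 ± 0.10, adjusted p = 0.0340, edgeR). Of all genes, 15.3% were called in that contrast, and between 1.22% (nitrate, Mphd9-14) and 26.2% (sucrose, Mpcsd-2) over the starved mutants.

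The genes most like each member were named by the correlation of log2(CPM + 1) over the 13 time-course group means, among 9813 genes with a mean of at least 10 CPM in some group. For MpERF21 30 genes passed r = 0.9, and for MpERF18 3 did. The sucrose-starved group stands far above the others in MpERF21 and was used in its choice. The 5 genes with a symbol nearest to MpERF21 were MpBHLH2, a basic helix-loop-helix transcription factor gene (r = 0.97), MpHRT-like (r = 0.97), MpSAUR14 of the auxin-induced SAUR family (r = 0.96), MpSQE, named for squalene epoxidase of sterol synthesis (r = 0.94), and MpMAPKKK10, a protein kinase gene (r = 0.94). All 5 were highest in the sucrose-starved group, and Spearman's rho, which weighs that group less, was 0.36 to 0.70. Over the 12 group means of the starvation set, which did not choose them, r was 0.96 for MpBHLH2, 0.93 for MpHRT-like, 0.89 for MpSAUR14 and 0.68 for each of MpSQE and MpMAPKKK10. Under sucrose starvation 4 of the 5 rose in Mpcsd-2, MpSAUR14 most (1.99 ± 0.41), 1 rose and 1 fell in Mperf20-21, and 2 rose in Mphd9-14. Of all genes 26.2%, 15.3% and 22.4% were called in either direction, and 2009, 1103 and 1634 of 13162 were called higher. None of the 5 was called in any line under nitrate or phosphate starvation.

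The 5 genes nearest to MpERF18 were MpWRKY8, a WRKY transcription factor gene, MpMADS1, a MADS-box gene, MpATXR4, MpCCC2 and MpCCAAT-NFYA, a subunit gene of the CCAAT-binding NF-Y complex, with r between 0.85 and 0.86. Their Spearman's rho was 0.45 to 0.75, and over the 12 groups of the starvation set r was 0.38 to 0.66. Under sucrose starvation 4 of the 5 rose in Mpcsd-2, 3 in Mperf20-21 and 4 in Mphd9-14, and none fell. Of all genes 26.2%, 15.3% and 22.4% were called in either direction, and 2009, 1103 and 1634 of 13162 were called higher. Among the 5, MpCCC2 rose most, by 2.91 ± 0.39, 2.33 ± 0.36 and 2.33 ± 0.35. MpWRKY8 was the only one of the 5 called in another starvation, rising in nitrate-starved (0.63 ± 0.14) and phosphate-starved Mpcsd-2 (0.75 ± 0.14).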

How the data were processed

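Gene counts of 86 M. polymorpha libraries were taken as the authors deposited them, in 3 tables (time course, control-condition set, starvation set). Per the submitters' processing notes STAR 2.7 and DESeq2 were used; the genome build, annotation and counting program are not given in the sources used here. Total counts per library were 19930892 to 38992957, 20161746 to 27511775 and 16878159 to 28439838 in the 3 tables, and every library entered. Each table was analysed separately with edgeR 4.0.16 in R 4.3.3: genes kept by filterByExpr (13504, 12565 and 13162 of 19355), TMM scaling, 1 coefficient per group, quasi-likelihood F tests and Benjamini-Hochberg adjustment over all genes tested, with a threshold of 0.05. SE and 95% intervals are on the log2 scale. CPM used the TMM-scaled library sizes. Symbols came from a RefSeq gene table (17384 of 19355 identifiers matched). The members and lists were chosen with earlier results of these data known. Named besides the members were the 3 mutated genes, per member the 5 genes with a symbol of highest correlation, and the ERF genes called most often in the starved mutants. The comparisons of the mutants with each other in full medium were added after the values were seen. The procedure was tested on simulated data. Libraries of the alga Klebsormidium nitens in the series were not used here. Alternatives were DESeq2 1.42.0, its size factors in edgeR, no filter, only the groups compared, a replicate block and leaving out each library. Same-numbered libraries deviated together little on average (mean r -0.02, 0.07 and 0.00, against 0.01, -0.04 and 0.00 for other numbers). The main fits therefore did not pair them. Single same-numbered pairs ran from -0.65 to 0.50, so these means cannot exclude pairing in some groups. Whether MpERF responses differ between Tak-1 and the mutants was not tested, because Tak-1 chose the genes and the tables were normalized separately.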

Additional observations from a re-analysis of the deposited data

Results flagged for a closer look

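For 4 starvation responses every starved library lay on one side of its own control mean in a knock-out line and every starved Tak-1 library on the other. The lines and Tak-1 are in separately normalized tables, and these differences were not tested. The Tak-1 responses also helped choose the genes, so a Tak-1 side above its controls was in part fixed in advance. For MpERF18 under nitrate starvation the log2 response in Mperf20-21 minus that in Tak-1 was -1.69 (-0.22 in Mperf20-21, which was not called, and 1.47 in Tak-1). For MpERF21 it was -7.82 in Mperf20-21 minus Tak-1 under nitrate starvation, -5.97 in Mpcsd-2 minus Tak-1 under phosphate starvation and -5.29 in Mperf20-21 minus Tak-1 under phosphate starvation. Without nitrate-starved Tak-1 replicate 1 the Tak-1 response of MpERF21 to nitrate starvation was 1.63, against 4.38 with it, and nitrate-starved Tak-1 replicate 3 (0.105 CPM, 3 counts) lay barely above the control mean. The Tak-1 controls behind these MpERF21 values hold 8 counts in all, and the mutant controls include the library with 25.1 CPM in Mpcsd-2 and the one with 6.84 CPM in Mperf20-21.

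MpERF18 ran in opposite directions in the 2 full-medium sets. On the log2 scale the starvation set minus the control-condition set was -1.83 for Mpcsd-2 minus Mperf20-21 and -1.75 for Mpcsd-2 minus Mphd9-14, and this difference between sets was not tested. In both sets every Mpcsd-2 library lay on one side of the mean of the other line, below it in the starvation set and above it in the control-condition set.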

How the results depend on the processing

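Of 1060 alternative values of the members, 985 were kept, and no alternative gave a call in the opposite direction. A tested value was kept when its direction and its side of the threshold stayed. An untested Tak-1 value was kept when it moved by less than the larger SD of log2 CPM within its groups. Sizeable moves of MpERF21 can therefore count as kept: 72 h of phosphate minus starvation went from -1.39 to -0.30 without phosphate-starved replicate 2. DESeq2's size factors in edgeR changed none. Dropping the filter called MpERF21 lower in Mphd9-14 than in Tak-1 (-1.19). The replicate block, run only as an alternative, ended 1 call, MpERF21 in full medium, Mpcsd-2 minus Mperf20-21 of the starvation set (1.72, adjusted p = 0.0817). DESeq2 ended that call (1.92) and that of MpERF21 in Mpcsd-2 minus Tak-1 (1.26). It added MpERF18 in 72 h minus 6 h of phosphate (-0.41) and MpERF21 in Mperf20-21 under nitrate (-3.44) and phosphate starvation (-2.69), in sucrose-starved Mphd9-14 (2.20) and in Mperf20-21 minus Mphd9-14 of the starvation set (3.21). Fitting only the groups compared ended the MpERF21 calls in phosphate-starved Mpcsd-2 (-3.36) and in Mpcsd-2 minus Mperf20-21 of the starvation set (1.91). It added MpERF18 under phosphate starvation in Mperf20-21 (0.80) and Mphd9-14 (0.72) and under sucrose starvation in Mperf20-21 (0.52) and Mphd9-14 (0.62), and MpERF21 in sucrose-starved Mphd9-14 (2.17). It gave no value for 8 MpERF21 contrasts, where too few counts were left.

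Leaving out each library in turn moved these values of MpERF21 in Tak-1: nitrate starvation 1.63 to 4.92, nitrate resupply minus starvation -5.90 to -2.61 at 6 h, -3.90 to -0.61 at 24 h and -4.48 to -1.19 at 72 h, and sucrose resupply minus starvation -9.31 to -7.08 at 72 h. Between resupply times MpERF21 ran from -0.29 to 1.05 (phosphate 24 h), -0.66 to 1.30 (phosphate 72 h), -1.07 to 0.72 (sucrose 24 h) and -2.96 to 0.0061 (sucrose 72 h), and MpERF18 from -0.18 to 0.024 (phosphate 24 h) and -0.63 to -0.26 (phosphate 72 h). In the control-condition set MpERF21 ran from 0.76 to 2.56 in Mpcsd-2, -1.30 to 0.55 in Mperf20-21 and -1.71 to 0.083 in Mphd9-14 against Tak-1, and -0.092 to 0.77 in Mperf20-21 minus Mphd9-14. In starved mutants MpERF21 ran from 0.055 to 2.31 (nitrate, Mpcsd-2), -3.88 to -1.88 (phosphate, Mpcsd-2), 1.00 to 2.92 (sucrose, Mpcsd-2), -3.90 to -1.76 (nitrate, Mperf20-21), -0.20 to 1.94 (sucrose, Mperf20-21) and -0.41 to 0.12 (phosphate, Mphd9-14), and MpERF18 from 0.11 to 0.72 (nitrate, Mpcsd-2), 0.45 to 0.86 (sucrose, Mpcsd-2), -0.025 to 0.21 (nitrate, Mphd9-14) and 0.49 to 0.79 (sucrose, Mphd9-14). Response differences of MpERF18 ran from -0.020 to 0.59 (nitrate, Mpcsd-2 minus Mphd9-14), -0.055 to 0.21 (phosphate, Mperf20-21 minus Mphd9-14), and under sucrose from -0.067 to 0.35 (Mpcsd-2 minus Mperf20-21), -0.17 to 0.24 (Mpcsd-2 minus Mphd9-14) and -0.29 to 0.058 (Mperf20-21 minus Mphd9-14). Those of MpERF21 ran from 2.58 to 5.75 (nitrate, Mpcsd-2 minus Mperf20-21), -2.37 to 0.80 (phosphate, Mpcsd-2 minus Mperf20-21), -0.51 to 2.66 (sucrose, Mpcsd-2 minus Mperf20-21) and -1.17 to 0.75 (sucrose, Mpcsd-2 minus Mphd9-14). In full medium of the starvation set MpERF18 ran from -0.98 to -0.56 (Mpcsd-2 minus Mperf20-21), -1.07 to -0.66 (Mpcsd-2 minus Mphd9-14) and -0.23 to 0.035 (Mperf20-21 minus Mphd9-14), and MpERF21 from 0.43 to 3.60 (Mpcsd-2 minus Mperf20-21) and 1.5 to 3.64 (Mperf20-21 minus Mphd9-14). The 31 changes of sign were all in values without a call. Where 1 sucrose-starved Mperf20-21 library was left, it was assumed to vary like the other groups.

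Counts of called genes moved most when only the groups compared were fitted: in Mpcsd-2 to 30 from 243 (nitrate), 542 from 1026 (phosphate) and 249 from 3442 (sucrose), in Mperf20-21 to 906 from 602 (phosphate), in Mphd9-14 to 572 from 160 (nitrate; 250 with DESeq2) and 707 from 303 (phosphate), in 24 h minus 6 h of phosphate to 1508 from 2498, and in Mperf20-21 minus Mphd9-14 of the starvation set to 244 from 84 (139 with DESeq2). For the response to sucrose starvation, Mpcsd-2 minus Mphd9-14, 20 genes were called, against 63 with DESeq2, 12 with the replicate block, 0 with only the groups compared and 3 to 126 without 1 library; the other response differences ran from 0 to 60 genes over all alternatives. Depth limits MpERF21, which had 4 to 25 counts per group after resupply and 17 to 21 in the Mphd9-14 groups of the starvation set other than sucrose starvation. The cause of these changes was not tested.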
